A study of Homo sapiens with 18 samples.

Results

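ZBTB16, TSC22D3, CRISPLD2, CEBPD, CEBPB, DUSP1 and SGK1 are 7 genes classically induced through the glucocorticoid or progesterone receptor. They were taken by their symbols from a count table of 78724 genes. All 7 were found, and all 7 are among the 15558 genes that passed the filter on low counts. Their messenger RNA was measured in THESC cells, a human endometrial stromal line immortalised with telomerase and then engineered with CRISPR guide RNAs. NT cells carry a non-targeting guide and are labelled WT. U1U2 cells carry the guides U1U2 and are labelled PGRA/B-equivalent, and promoter cells carry a promoter guide and are labelled PGRB-dominant. PGRA and PGRB are the isoforms of the progesterone receptor, whose gene PGR was activated in the U1U2 and promoter cells. All cells were grown with blasticidin, kept 24 hours in low serum, and then held for 72 hours in charcoal-stripped serum with vehicle (0.01% ethanol) or 1 µM medroxyprogesterone acetate (MPA). Each of the 6 groups has 3 libraries. No group lacked a receptor, received a blocker or received a glucocorticoid, so which receptor carried a response was not tested. Whether a line is 1 clone or a pool was not given in the sources used here. Nor do the labels say that replicates came from separate cultures, so p-values measure the spread between these libraries, which may be technical.

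The glucocorticoid and progesterone receptors are transcription factors that, with their hormone, bind the same DNA element, a hexamer and its inverted copy. MPA is a synthetic progestin that is also known to bind the glucocorticoid receptor. In endometrial stroma, progestin together with cyclic AMP turns fibroblast-like cells into decidual cells, a change in which ZBTB16 and the C/EBP factors are known to take part. Of the 7 genes, ZBTB16, TSC22D3, CEBPD and CEBPB encode transcription regulators, DUSP1 and SGK1 encode enzymes of kinase signalling, and CRISPLD2 encodes a secreted protein.

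Total counts ran from 11.9 to 33.4 M per library (median 22.9 M), and the 7 genes together took 0.0482% to 0.0545% of the counts in vehicle and 0.0733% to 0.0844% in MPA. Values are CPM, counts normalised to the TMM-scaled library total. The stromal label was checked against 10 marker genes, which summed to 7711 to 12661 CPM in vehicle and 9805 to 12435 CPM in MPA. The endothelial markers PECAM1 and CDH5 had 0 to 4 and 0 to 2 counts per library, and the T cell marker CD3E had 0. The 5 endothelial markers summed to 55.2 to 74.9 CPM in vehicle and 42.3 to 50.6 CPM in MPA, nearly all of it TEK. The 6 leukocyte markers summed to 3.59 to 5.57 CPM in vehicle and 1.59 to 2.41 CPM in MPA, nearly all of it PTPRC. The 6 epithelial markers summed to 20.1 to 36.8 CPM in vehicle and 11.9 to 25.4 CPM in MPA, mostly KRT19. The endothelial and leukocyte sums were lower in all MPA libraries than in all vehicle libraries, and the epithelial sums overlapped. The part of these markers in the members' responses was not tested.

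Promoter windows show what letters lie near the starts of the members. The RefSeq promoter table (GRCh38.p14) matched 5 of the 7 genes with 11 windows of 300 bases, each 250 bases before and 50 from a start. ZBTB16 and CEBPD are not shown. The windows were searched on both strands for the full hormone response element, AGAACA and TGTTCT with any 3 bases between, and for its single hexamer AGAACA. They were also searched for the cyclic AMP response element TGACGTCA, the shorter TGACG that lies within it, the C/EBP palindrome TTGC joined to GCAA, the TATA box TATAAA and the CCAAT box CCAAT. DUSP1 is printed because its window alone among the 11 held the whole cyclic AMP element, and CRISPLD2 because its window held none of these motifs. Of TSC22D3, CEBPB and SGK1 the 30 bases around a match are shown. Capitals mark motif matches, and all sequences run 5′ to 3′ on the gene's strand.
DUSP1, chr5:172771196-172771445, minus strand, positions -250 to -1 from the start: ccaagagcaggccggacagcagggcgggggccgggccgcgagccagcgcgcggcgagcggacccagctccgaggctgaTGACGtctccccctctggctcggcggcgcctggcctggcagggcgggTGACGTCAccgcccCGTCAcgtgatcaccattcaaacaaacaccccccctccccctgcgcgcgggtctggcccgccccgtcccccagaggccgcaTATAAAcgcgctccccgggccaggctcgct
CRISPLD2, chr16:84819735-84819983, plus strand, positions -250 to -2: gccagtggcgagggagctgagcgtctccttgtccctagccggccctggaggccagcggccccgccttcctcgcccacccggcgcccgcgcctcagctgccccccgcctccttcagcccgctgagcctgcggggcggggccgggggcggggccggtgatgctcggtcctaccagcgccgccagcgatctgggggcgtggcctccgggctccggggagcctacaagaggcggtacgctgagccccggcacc
TSC22D3, chrX:107717101-107717130, minus strand: atggccccTGACGccatgTGACGcagccgg
CEBPB, chr20:50190760-50190789, plus strand: ggaggggccggcgTGACGcagcggttgcta
SGK1, chr6:134177839-134177868, minus strand: ggggttcataacAGAACAgggatagccgtc

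The full hormone response element was in 0 of the 11 member windows and in 1 of the 35116 windows of the table (0.00285%). The single hexamer was in 1 of 11, at position 6 of an SGK1 start, against 14.8% of all windows. The cyclic AMP element was in 1 of 11, at position -125 of DUSP1, against 1.85% of all windows. The shorter TGACG was in 5 of 11 windows, from CEBPB, DUSP1 and TSC22D3, against 24.6%. The TATA box was in 6 of 11, from CEBPB, DUSP1, SGK1 and TSC22D3, against 11.5%, and the CCAAT box in 3 of 11 against 34.6%. The C/EBP palindrome was in 0 of 11 and in 0.151% of all windows. Windows of a gene overlap or share its locus, and a match describes letters and is not evidence of a bound site.

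MPA raised TSC22D3 and CRISPLD2 in all 3 lines, and CEBPD in the U1U2 and promoter lines. SGK1 was also called higher in all 3 lines, by small changes whose calls were lost with no filter on low counts. DUSP1 passed the test in U1U2 cells, and CEBPB did not pass it in any line. ZBTB16, at 0 or 1 count in each vehicle library and 93 or more in each MPA library, passed the filter on low counts only through its MPA libraries, so it is described by its values and left out of the counts against vehicle. By edgeR's quasi-likelihood test, at a Benjamini-Hochberg adjusted p under 0.05 over all tested genes, the calls among the other 6 members were 3 for the NT line, 5 for the U1U2 line and 4 for the promoter line, all of them higher with MPA. Of all tested genes, 2.44%, 5.44% and 6.63% were called higher in these comparisons, and 5.93%, 11.7% and 15% in either direction. Counted by ranges, all MPA libraries were above all vehicle libraries for 5 of these 6 in the NT line, 6 in the U1U2 line and 4 in the promoter line, against 9.49%, 11.5% and 17.6% of tested genes. The median log2 fold change of the 6 was 0.32, 0.97 and 0.62, against 0.02, 0.03 and 0.00 over all tested genes. The members and all gene lists were chosen with earlier results of these data known. These shares and medians therefore describe the genes and do not test the class. These are bulk samples, so fewer cells of a type and less RNA per cell cannot be told apart.

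**Figure D1:**
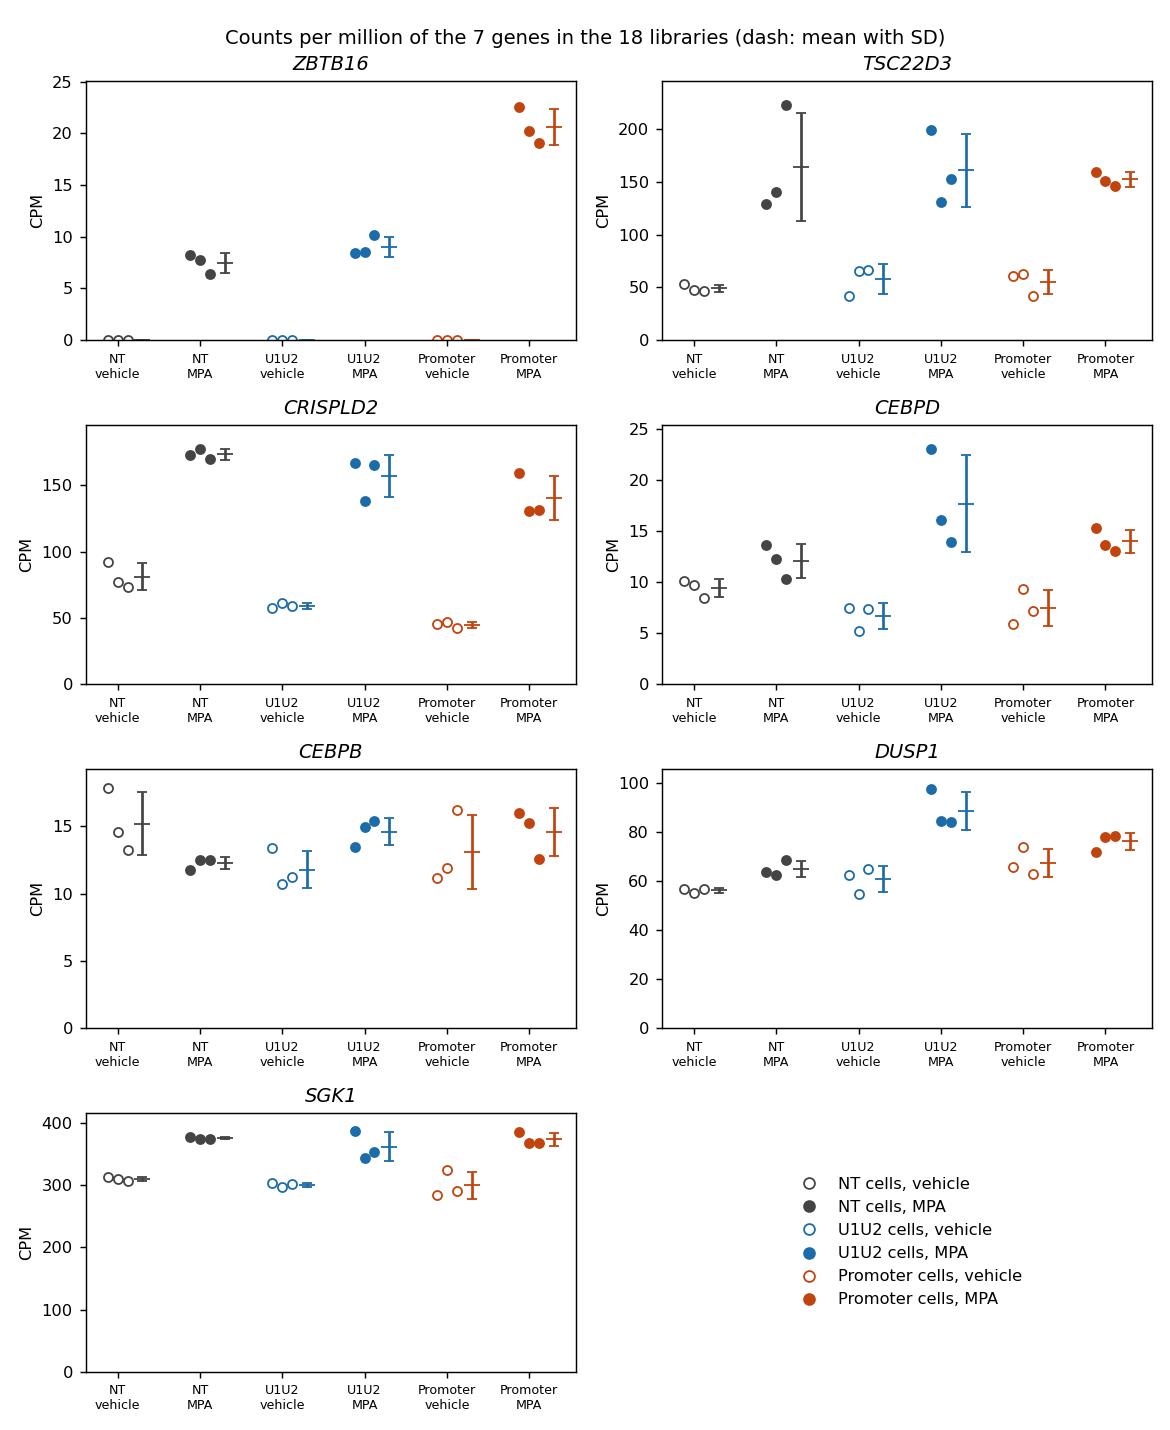
CPM (vertical axis, from 0) of each of the 7 genes in the 18 libraries, 3 points per group, open for vehicle and filled for MPA, with the group mean and SD beside them. ZBTB16 is at or near 0 in every vehicle library and highest in promoter cells with MPA, between 19.1 and 22.5 CPM, while the SGK1 groups lie close together above 280 CPM.

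ZBTB16 (ENSG00000109906, chr11:114059593-114250676, plus strand, GRCh38) encodes PLZF, a zinc finger transcription factor of the BTB family. In vehicle it had 0 counts in all 3 NT libraries, 0 in all 3 U1U2 libraries, and 0, 1 and 0 in the promoter libraries. With MPA it had 190, 245 and 93 counts in NT cells, 181, 188 and 298 in U1U2 cells, and 598, 532 and 422 in promoter cells. Every MPA library was far above every vehicle library, with no overlap. Against a floor of 3 counts over the vehicle group, the MPA level was at least 122-fold higher in NT cells and at least 260-fold higher in U1U2 cells. In promoter cells, whose vehicle group had 1 count in all, the MPA level was 577-fold above the same floor of 3 counts. These floors cover counting error only. For ZBTB16 no test against vehicle and no difference between the lines' fold changes is given.

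The lines differed in how much ZBTB16 they had under MPA. Its level was 8.23, 7.75 and 6.40 CPM in NT cells, 8.48, 8.51 and 10.2 CPM in U1U2 cells, and 22.5, 20.2 and 19.1 CPM in promoter cells. All promoter libraries lay above all libraries of the other lines, and the U1U2 libraries lay just above the NT libraries. The means were 7.46 ± 0.947, 9.05 ± 0.960 and 20.6 ± 1.76 CPM (SD, n = 3). Promoter cells exceeded NT cells by 1.46 ± 0.18 on the log2 scale (SE, adjusted p = 0.000146), a 2.75-fold difference. They exceeded U1U2 cells by 1.18 ± 0.17 (adjusted p = 0.00889), which was 1.14 (adjusted p = 0.0590) without U1U2 MPA replicate 1 and 1.20 (adjusted p = 0.0543) without promoter MPA replicate 2. U1U2 minus NT was 0.27 ± 0.18 (adjusted p = 0.778) and did not pass. ZBTB16 was the 1 member called between promoter and U1U2 cells in MPA, a comparison in which 0.328% of all tested genes were called.

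TSC22D3 (ENSG00000157514, chrX:107713221-107777342, minus strand) encodes GILZ, a leucine zipper protein that restrains inflammatory transcription and is among the best known glucocorticoid targets. It was 53.0, 47.6 and 46.3 CPM in NT vehicle and 129, 141 and 223 CPM in NT MPA. U1U2 cells had 41.9, 65.6 and 66.8 CPM in vehicle and 199, 131 and 152 CPM in MPA. Promoter cells had 60.9, 62.5 and 42.0 CPM in vehicle and 160, 151 and 146 CPM in MPA. The treatments never overlapped within a line, and the MPA ranges of the lines lay over each other. The log2 fold change with MPA was 1.74 ± 0.22 in NT cells (adjusted p = 3.39e-05), 1.47 ± 0.21 in U1U2 cells (9.38e-05) and 1.47 ± 0.21 in promoter cells (7.04e-05). TSC22D3 was not called between any pair of lines, in vehicle or in MPA. Under MPA U1U2 cells differed from NT cells by -0.03 ± 0.21, promoter cells from NT cells by -0.11 ± 0.21, and promoter cells from U1U2 cells by -0.08 ± 0.21. The first of these turned to 0.26 and the second to 0.18 without NT MPA replicate 3, the highest library. Its libraries were scattered: the coefficient of variation was 31.1% in NT MPA and 4.54% in promoter MPA.

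CEBPD (ENSG00000221869, chr8:47736909-47739086, minus strand, 1 exon) encodes C/EBP delta, a bZIP factor of early hormone and cytokine responses. In NT cells it was 10.1, 9.67 and 8.45 CPM in vehicle and 13.6, 12.3 and 10.3 CPM in MPA. The groups met closely without overlap, and the change of 0.37 ± 0.20 was not called (adjusted p = 0.377). In U1U2 cells it was 7.51, 5.25 and 7.35 CPM in vehicle and 23.1, 16.1 and 14.0 CPM in MPA. In promoter cells it was 5.91, 9.35 and 7.15 CPM in vehicle and 15.3, 13.7 and 13.1 CPM in MPA. In both activated lines every MPA library was above every vehicle library. The rise of CEBPD was 1.40 ± 0.20 in U1U2 cells (adjusted p = 6.79e-05); promoter cells gained 0.93 ± 0.20 (adjusted p = 0.00292). The response in U1U2 cells was larger than in NT cells by 1.04 ± 0.28, which did not pass (adjusted p = 0.200); with no filter on low counts it was 1.01 and passed (adjusted p = 0.0107). For promoter minus NT the difference of responses was 0.56 ± 0.28 (adjusted p = 0.358).

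CEBPB (ENSG00000172216, chr20:50190734-50192689, plus strand, 1 exon) encodes C/EBP beta, a bZIP factor known for its part in decidualization under cyclic AMP. It was 17.8, 14.6 and 13.2 CPM in NT vehicle and 11.8, 12.5 and 12.5 CPM in NT MPA. In U1U2 cells it was 13.4, 10.7 and 11.2 CPM in vehicle and 13.5, 14.9 and 15.4 CPM in MPA. In promoter cells it was 11.1, 11.9 and 16.2 CPM in vehicle and 16.0, 15.2 and 12.6 CPM in MPA. With MPA the NT libraries were all below their vehicle libraries, the U1U2 libraries were all above theirs, and the promoter libraries overlapped. The changes were -0.31 ± 0.15 (adjusted p = 0.325), 0.32 ± 0.15 (adjusted p = 0.213) and 0.15 ± 0.15 (adjusted p = 0.554). Of the 12 comparisons made, CEBPB was called in 0 by edgeR's test. The difference of responses between U1U2 and NT cells was 0.62 ± 0.21 (adjusted p = 0.404). Of all tested genes, 9.78% lay wholly below vehicle in NT cells and 11.5% wholly above it in U1U2 cells.

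**Figure D2:**
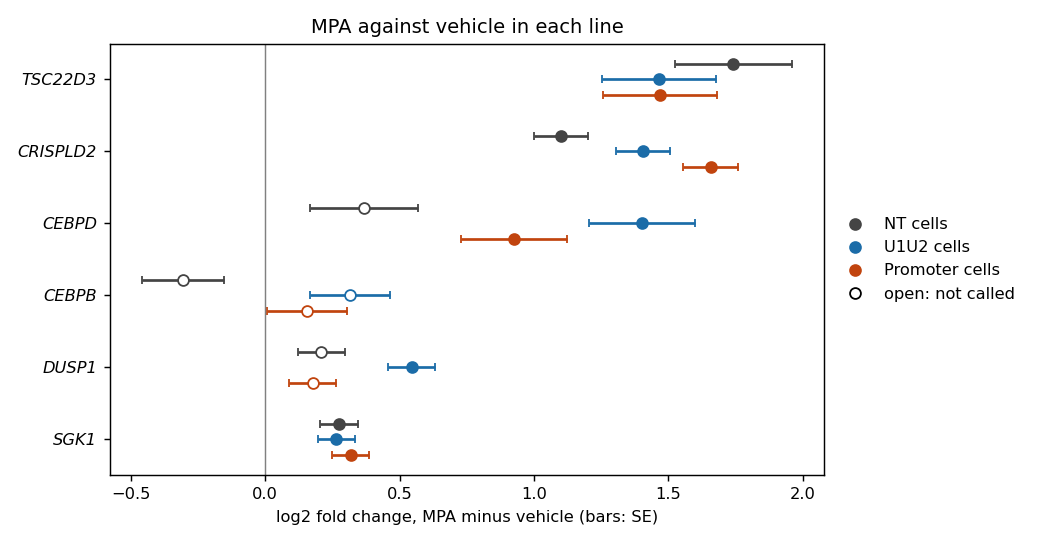
Log2 fold change of MPA minus vehicle (horizontal axis, bars are the SE) for 6 of the genes in NT, U1U2 and promoter cells; filled points are called and open points are not. ZBTB16 is left out because its vehicle libraries are at or near 0. TSC22D3 and CRISPLD2 lie beyond 1 in every line, SGK1 lies between 0.26 and 0.32, and CEBPD is spread from 0.37 to 1.40.

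DUSP1 (ENSG00000120129, chr5:172768090-172771195, minus strand) encodes MKP-1, a phosphatase that switches off p38, JNK and ERK kinases. It was 56.9, 55.1 and 56.6 CPM in NT vehicle and 63.7, 62.6 and 68.7 CPM in NT MPA. In U1U2 cells it was 62.5, 54.9 and 65.1 CPM in vehicle and 97.7, 84.4 and 84.1 CPM in MPA. In promoter cells it was 65.7, 73.9 and 62.8 CPM in vehicle and 72.0, 78.1 and 78.3 CPM in MPA. The treatments stood apart in NT and U1U2 cells and overlapped in promoter cells. DUSP1 rose by 0.55 ± 0.09 in U1U2 cells (adjusted p = 0.000237). Neither the 0.21 ± 0.09 of NT cells (adjusted p = 0.225) nor the 0.18 ± 0.09 of promoter cells (adjusted p = 0.202) was called. The difference of responses did not pass for U1U2 minus NT (0.34 ± 0.12, adjusted p = 0.440) or for promoter minus U1U2 (-0.37 ± 0.12, adjusted p = 0.575), so the lines are not shown to respond differently.

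Under MPA DUSP1 was higher in U1U2 than in NT cells, by 0.45 ± 0.09 (adjusted p = 0.00806), with no overlap between the libraries. DUSP1 was the 1 member called in that comparison, where 1.72% of all tested genes were called. The call was lost in a fit of these groups alone (0.45, adjusted p = 0.129), without NT MPA replicate 2 (0.42, adjusted p = 0.0647) and without U1U2 MPA replicate 1 (0.38, adjusted p = 0.0508). In vehicle, promoter minus NT was 0.26 ± 0.09 (adjusted p = 0.0857), and it passed when libraries were scaled by their totals alone (0.28, adjusted p = 0.0263).

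SGK1 (ENSG00000118515, chr6:134169246-134318112, minus strand) encodes a serine/threonine kinase of the AKT kind that regulates sodium transport and cell survival. It was 314, 311 and 307 CPM in NT vehicle and 377, 375 and 375 CPM in NT MPA. U1U2 cells had 304, 298 and 302 CPM in vehicle and 388, 344 and 354 CPM in MPA. Promoter cells had 284, 325 and 291 CPM in vehicle and 386, 368 and 369 CPM in MPA. In each line all MPA libraries were above all vehicle libraries. NT cells gained 0.27 ± 0.07 on the log2 scale (adjusted p = 0.0217), U1U2 cells 0.26 ± 0.07 (0.0164) and promoter cells 0.32 ± 0.07 (0.00348), the smallest rises among the members called in all 3 lines. With no filter on low counts all 3 calls were lost (adjusted p = 0.147, 0.197 and 0.0591), at log2 values of 0.29, 0.26 and 0.30. The NT call was also lost without NT vehicle replicate 2 or 3, or without any 1 of the NT MPA libraries, with adjusted p from 0.0573 to 0.109. In a fit of only the groups compared the NT call (0.27, adjusted p = 0.159) and the U1U2 call (0.26, adjusted p = 0.167) were lost. That in U1U2 cells was lost without U1U2 vehicle replicate 2 (adjusted p = 0.0835) or 3 (0.0723), or without U1U2 MPA replicate 1 (0.0767). SGK1 was not called between lines, where its differences lay between -0.05 and 0.05 on the log2 scale.

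CRISPLD2 (ENSG00000103196, chr16:84819984-84920768, plus strand) encodes a secreted protein of the CAP family, known in the endometrium as a progesterone-responsive, anti-inflammatory factor. It was 92.4, 77.3 and 73.0 CPM in NT vehicle, 57.0, 61.5 and 59.1 CPM in U1U2 vehicle and 45.0, 46.5 and 42.1 CPM in promoter vehicle. With MPA it was 173, 178 and 170 CPM in NT cells, 167, 139 and 165 CPM in U1U2 cells and 159, 130 and 132 CPM in promoter cells. Without the progestin the 3 lines formed separate steps, NT above U1U2 above promoter, and with it the ranges of the activated lines overlapped. MPA raised CRISPLD2 by 1.10 ± 0.10 in NT cells (adjusted p = 1.03e-06), 1.41 ± 0.10 in U1U2 cells (1.76e-08) and 1.66 ± 0.10 in promoter cells (2.14e-09).

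In vehicle CRISPLD2 was lower in promoter than in NT cells by 0.86 ± 0.10 on the log2 scale (adjusted p = 0.000107), in a comparison that called 6.75% of all tested genes and 3.68% as lower. It was the 1 member called there and the 1 member called between U1U2 and NT cells in vehicle, where 1.14% of tested genes were called and 0.713% as lower. U1U2 minus NT was -0.45 ± 0.10 (adjusted p = 0.0387). That call was lost with libraries scaled by their totals (-0.43, adjusted p = 0.0504), in a fit of these groups alone (-0.45, adjusted p = 0.216), and without NT vehicle replicate 1 or 2 or any 1 of the U1U2 vehicle libraries (-0.34 to -0.48, adjusted p from 0.0510 to 0.152). Promoter minus U1U2 was -0.41 ± 0.10 (adjusted p = 0.0721), and it passed with DESeq2 (adjusted p = 0.00937). Both comparisons with NT cells share the 3 NT libraries. In MPA none of the 3 pairs of lines was called by edgeR's test, with U1U2 cells at -0.14 ± 0.10 and promoter cells at -0.30 ± 0.10 from NT cells, and promoter cells at -0.16 ± 0.10 from U1U2 cells. At an unadjusted p under 0.05 only the promoter and NT pair passed, and DESeq2 called 0 of these pairs. The response to MPA was larger in promoter than in NT cells by 0.56 ± 0.14, which missed the threshold (adjusted p = 0.0567). It passed with DESeq2 (0.57, adjusted p = 0.00696), with RLE scaling (0.57, adjusted p = 0.0498) and without NT vehicle replicate 3 (0.64, adjusted p = 0.0494).

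**Figure D3:**
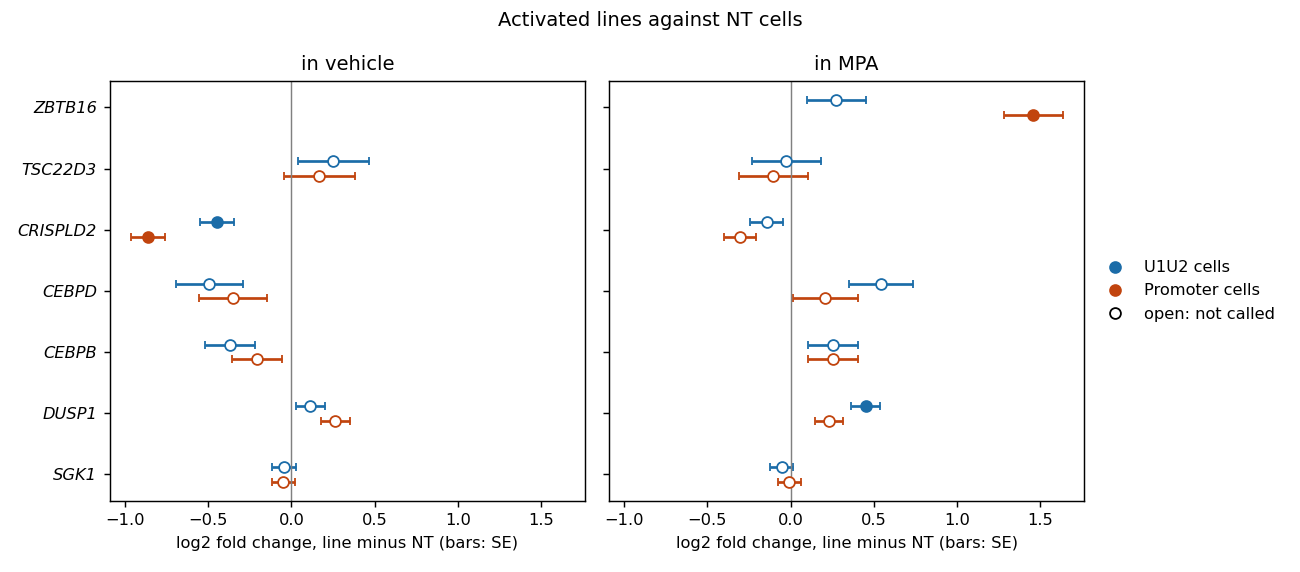
Log2 fold change of each activated line minus NT cells (horizontal axis, bars are the SE), in vehicle on the left and in MPA on the right; filled points are called. CRISPLD2 is lower in vehicle by 0.45 in U1U2 and 0.86 in promoter cells, and in MPA the filled points are ZBTB16 in promoter cells (1.46) and DUSP1 in U1U2 cells (0.45); ZBTB16 is not drawn in vehicle.

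Across lines in vehicle, where ZBTB16 is left out, 1 of 6 members was called in each of U1U2 against NT and promoter against NT. The shares of all tested genes called there were 1.14% for U1U2 against NT and 6.75% for promoter against NT. In promoter against U1U2 vehicle 0 were called by edgeR's test, 1 at an unadjusted p under 0.05 and 1 by DESeq2, and 0.784% of all tested genes were called. In MPA 1 of 7 was called higher in each of the 3 pairs. The shares of all tested genes called higher were 0.784% for U1U2 against NT, 1.77% for promoter against NT (4.15% in either direction) and 0.193% for promoter against U1U2. Ranges without overlap were more frequent than calls. In vehicle CRISPLD2, CEBPD and SGK1 lay wholly lower in U1U2 than in NT cells (7.97% of tested genes did), CRISPLD2 in promoter than in NT cells (11%) and in promoter than in U1U2 cells (6.99%), and DUSP1 wholly higher in promoter than in NT cells (10%). In MPA ZBTB16, CEBPD, CEBPB and DUSP1 lay wholly higher in U1U2 than in NT cells (5.5%) and CRISPLD2 wholly lower (6.37%). ZBTB16, CEBPB and DUSP1 lay wholly higher in promoter than in NT cells (10.2%) and CRISPLD2 wholly lower (12.9%). Between promoter and U1U2 cells ZBTB16 was wholly higher (4.72%) and DUSP1 wholly lower (4.92%). By edgeR's test 0 of the 6 members other than ZBTB16 differed in their MPA response between U1U2 and NT, promoter and NT, or promoter and U1U2 cells, against 0.219%, 1.56% and 0.0129% of tested genes. At an unadjusted p under 0.05 these differences held 4, 2 and 1 members, and DESeq2 called 0, 1 and 0. These pairwise differences share libraries, so they are not independent of each other.

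Per kilobase of exon, SGK1 and DUSP1 were the most abundant members in NT vehicle, at 31.1 ± 0.327 and 27.8 ± 0.486 CPM per kb (SD, n = 3). TSC22D3 (10.3 ± 0.739) and CRISPLD2 (10.2 ± 1.28) followed and overlapped each other. Below them were CEBPB (7.78 ± 1.21), CEBPD (4.32 ± 0.398) and ZBTB16 (0). With MPA the NT order was SGK1 (37.6 ± 0.128), TSC22D3 (34.4 ± 10.7), DUSP1 (32.2 ± 1.60), CRISPLD2 (21.8 ± 0.514), CEBPB (6.27 ± 0.220), CEBPD (5.55 ± 0.766) and ZBTB16 (1.17 ± 0.149). TSC22D3 thus moved from the level of CRISPLD2 to a range that covered those of DUSP1 and SGK1. In U1U2 MPA the highest was DUSP1 (44.0 ± 3.86), whose libraries at 41.7 to 48.4 all lay above those of SGK1 at 34.4 to 38.8. CEBPD (8.13 ± 2.19) and CEBPB (7.47 ± 0.510) overlapped there. ZBTB16 was the lowest member in every group, and in promoter MPA it was 3.23 ± 0.277 CPM per kb beside CEBPD at 6.43 ± 0.524. These lengths sum all annotated exons, so a gene with many alternative exons, such as SGK1 with 30 annotated transcripts, has its level understated.

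Other genes known to respond to glucocorticoid or progestin were read from a list of 23, of which 16 were tested. ANGPTL4, PDK4, FAM107A, TFCP2L1, SERPINA3, HIF3A and SCNN1A did not pass the filter on low counts, with or without MPA. The shares below therefore leave them out. RASD1 is described apart, since it passed the filter on low counts only through MPA libraries. Of the other 15, 6 were higher and 1 was lower with MPA in NT cells, 10 and 0 in U1U2 cells, and 9 and 0 in promoter cells. Those higher were 40%, 66.7% and 60% of the 15, against 2.44%, 5.44% and 6.63% of all tested genes, and the median log2 fold changes were 0.16, 0.80 and 0.75. This list too was chosen with earlier results of these data known, so its shares are a description and not a test. FKBP5, a co-chaperone that restrains steroid receptors, was 16.1, 16.4 and 20.8 CPM in vehicle and 120, 180 and 348 CPM in MPA in NT, U1U2 and promoter cells. Already in vehicle FKBP5 was called higher in promoter than in NT cells by edgeR's test. Its order over the lines under MPA was that of ZBTB16, and promoter cells exceeded U1U2 cells by 0.95 ± 0.09 (adjusted p = 2.15e-05). The FKBP5 response was larger in promoter than in NT cells by 1.18 ± 0.13 (adjusted p = 0.00013). PIK3R1, a regulatory subunit of PI3 kinase, was, like CRISPLD2, lower in both activated lines in vehicle, at 504 CPM in NT cells against 378 in the U1U2 line (adjusted p = 0.0330) and 344 in the promoter line (0.00124). In MPA it was 562, 518 and 598 CPM, and no pair of lines was called by edgeR's test. Its response was larger in promoter than in NT cells by 0.64 ± 0.13 (adjusted p = 0.0140). RASD1, a small GTPase first found as a dexamethasone-induced gene, had 0 to 9 counts in a vehicle library. In MPA RASD1 was 0.303 to 0.550 CPM in NT cells, 1.90 to 3.51 in U1U2 cells and 3.99 to 4.74 in promoter cells. The 3 MPA ranges did not overlap. The filter asked for 0.437 CPM in 3 libraries, and RASD1 reached that in 0 of 9 vehicle libraries and 2 of 3 NT MPA libraries, so no test of it is given. BIRC3, an inhibitor of apoptosis, fell by 0.69 ± 0.18 in NT cells (adjusted p = 0.0244).

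**Figure D4:**
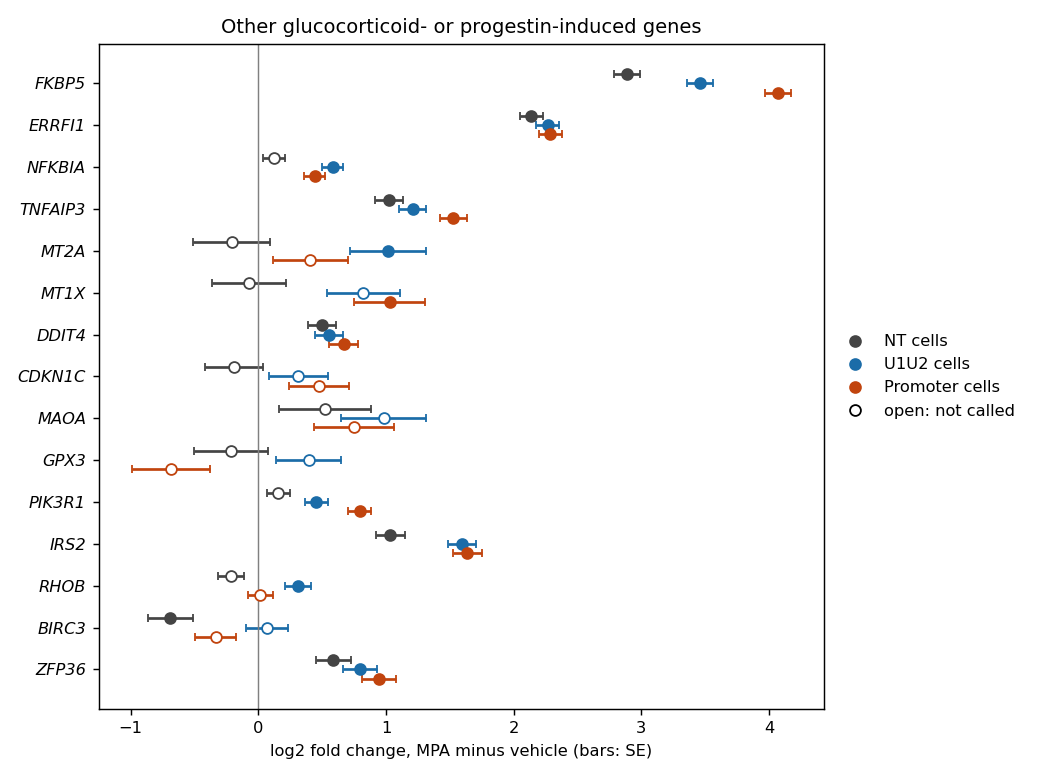
Log2 fold change of MPA minus vehicle (horizontal axis, bars are the SE) for 15 genes of the list of other glucocorticoid- or progestin-induced genes in the 3 lines; filled points are called, and RASD1 is left out. FKBP5 is at 2.89, 3.46 and 4.07 in NT, U1U2 and promoter cells, and ERRFI1 is above 2 in each.

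None of the steroid receptor genes NR3C1, PGR and ESR1 was called higher with MPA in any line. The glucocorticoid receptor NR3C1 fell from 322 ± 12.7 to 256 ± 16.5 CPM in NT cells (-0.33 ± 0.08, adjusted p = 0.0151) and from 281 ± 11.6 to 234 ± 17.8 CPM in U1U2 cells (-0.27 ± 0.08, adjusted p = 0.0329). In promoter cells it was 259 ± 18.1 CPM in vehicle and 227 ± 7.93 in MPA (-0.19 ± 0.08, adjusted p = 0.116). In vehicle NR3C1 was lower in promoter than in NT cells, by 0.31 ± 0.08 (adjusted p = 0.0215). PGR was called lower with MPA in each line. The mineralocorticoid receptor NR3C2 and the estrogen receptor ESR1 were below 1 CPM as group means, and NR3C2 passed the filter only through vehicle libraries.

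Of 20 listed relatives of the members 15 were tested, and all but DUSP4 could have passed the filter on low counts through either treatment. Among the other 14, 1 rose and 1 fell in NT cells, 1 rose and 1 fell in U1U2 cells, and 0 rose and 4 fell in promoter cells. Those called were 14.3%, 14.3% and 28.6% of the 14, against 5.93%, 11.7% and 15% of all tested genes, and the medians were 0.08, 0.07 and -0.01. DUSP4, a nuclear phosphatase of the same class as DUSP1, was 0.562 to 0.831 CPM over the vehicle libraries and 0.0866 to 0.375 CPM over the MPA libraries, without overlap. It reached the 0.437 CPM of the filter only in vehicle, so no test of it is given. DUSP5, an ERK phosphatase, rose by 1.17 ± 0.16 in NT cells (adjusted p = 0.000119) and 0.72 ± 0.16 in U1U2 cells (adjusted p = 0.00416). In promoter cells DUSP7, DUSP10, DUSP14 and DUSP16 fell, by 0.53, 0.39, 0.69 and 0.39, and DUSP16 also fell in U1U2 cells, by 0.42 ± 0.09 (adjusted p = 0.00326). DUSP5 and DUSP14 were called higher in promoter than in NT vehicle, at 36.2 against 20.7 CPM and 62.4 against 45.2 CPM. Under MPA they were 47.8 against 46.5 CPM and 38.6 against 41.3 CPM, and neither was called. TSC22D2, a relative of TSC22D3, fell in NT cells from 78.0 ± 4.58 to 54.3 ± 9.43 CPM (-0.52 ± 0.14, adjusted p = 0.0319). None of CEBPG, CEBPZ, DDIT3, TSC22D1, TSC22D4 and SGK3 was called with MPA in any line. Among the 12 signalling partners of SGK1 and DUSP1, NDRG1, whose product SGK1 phosphorylates, rose by 0.50 ± 0.10, 0.71 ± 0.10 and 0.74 ± 0.10 in NT, U1U2 and promoter cells (adjusted p = 0.00337, 5.52e-05 and 2.84e-05). NEDD4L, a ubiquitin ligase that SGK1 inhibits, fell by 0.88 ± 0.11, 1.20 ± 0.11 and 1.29 ± 0.11 (adjusted p = 3.81e-05, 2.56e-07 and 7.58e-08). In vehicle NEDD4L was 17.2, 24.6 and 27.5 CPM in NT, U1U2 and promoter cells, and both activated lines were called higher than NT cells. Under MPA it was 9.41, 10.7 and 11.2 CPM, and no pair of lines was called. Its response was not called different between any pair of lines. The kinase MAP2K1 fell by 0.40 in promoter cells, and the other 9 partners, RELA and the MAP kinases among them, were not called with MPA in any line. Partners called were 16.7%, 16.7% and 25% of the 12 in NT, U1U2 and promoter cells. The shares of all tested genes called were 5.93%, 11.7% and 15%.

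Over the 18 libraries the log2 CPM of ZBTB16, TSC22D3, CRISPLD2 and SGK1 ran together, with Pearson r from 0.88 to 0.94 between pairs. CEBPB stood apart, with r from 0.01 to 0.40 with the other 6. These libraries share the split into vehicle and MPA. Within groups, after the group means were taken off, r ran from -0.40 (TSC22D3 and CEBPB) to 0.81 (CEBPD and SGK1). It was 0.62 for ZBTB16 and SGK1, 0.61 for DUSP1 and SGK1, and 0.01 for ZBTB16 and TSC22D3. ZBTB16 had 0 or 1 count in each vehicle library, so its r within groups rests almost wholly on MPA libraries. Among 10973 genes, those with the highest r over the 18 libraries were CORIN, PTGER2 and FKBP5 (each 0.99) for ZBTB16, EVA1C, ADAMTS1 (0.97) and ACTG2 (0.96) for TSC22D3, and GRIA1 (0.98), MOB3B and GAS1 (0.97) for CRISPLD2. For CEBPD they were SGMS1, TMEM64 and ANAPC16 (0.94), for CEBPB MED10, MTSS2 (0.85) and GLTP (0.84), for DUSP1 PLCB4 (0.91), JCAD and LDHA (0.90), and for SGK1 PAPLN (0.97), GRIA1 and NID1 (0.96). Correlations are descriptions over libraries that share conditions.

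Some members overlap antisense genes, which had few counts. Those over ZBTB16, CRISPLD2, CEBPB and DUSP1 had at most 1, 12, 19 and 11 counts in a library, where CEBPB had 182 to 582 counts. The strand setting of the counting was not given in the sources used here, so reads of a member and of its antisense partner cannot be told apart.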

How the data were processed

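RNA of the 18 samples was column-purified and DNase-treated, and stranded poly(A) libraries were prepared, per the labels' protocols. All 18 carry 1 batch label, so nothing could be repeated within batches. The files deposited by the authors hold whole-number read counts for each gene and, for 10402 genes, log2 CPM. The submitters' processing notes name STAR 2.6.0c, hg38, R 4.4.1 and edgeR 4.2.2; the counter, its strand setting and the annotation are not given in the sources used here. All values of the deposited log2 table lay within 5e-09 of log2 CPM recomputed with a prior count of 2, so it entered no test.

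The tests used edgeR 4.0.16 (R 4.3.3) on the deposited counts, with filterByExpr at a minimum count of 10, TMM factors and a quasi-likelihood fit of all 18 libraries with 1 coefficient for each group. The common biological coefficient of variation was 0.129. There were 12 contrasts: MPA against vehicle in each line, pairs of lines in vehicle and in MPA, and pairwise differences in the response to MPA. Benjamini-Hochberg adjustment ran over the 15558 tested genes; every adjusted p is from edgeR's test unless DESeq2 1.42.0 is named. Log2 fold changes carry standard errors. Replicates differed by more than sampling noise (chi-square per degree of freedom 1.89 to 33.2), so each counted once. Samples were grouped by guide and treatment labels. Alternatives were DESeq2, RLE factors, library totals, no filter, a replicate block, a fit of the groups compared, and leaving out each library. The tests were also run on simulated counts in which all genes shared a common spread. That setting is simpler than these libraries, so it does not measure how often the calls here are wrong.

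The members and all gene lists were chosen with earlier results of these data known. Genes that passed the filter through 1 treatment only (at or over 0.437 CPM in fewer than 3 libraries of the other) are left out of the counts and given without tests against it. Named are the members, members of the fixed lists and, for each member, the 3 genes most correlated with it among tested genes whose mean log2 CPM reached 1. Gene positions are from GENCODE 29 (GRCh38), and promoter windows from RefSeq (GRCh38.p14).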

Additional observations from a re-analysis of the deposited data

How the results depend on the processing

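ZBTB16 is counted here only between lines in MPA. Of 1008 values of single members under the alternatives, 976 kept their side of the threshold, 26 lost it and 6 gained it. The sign differed from the reported one in 45, of which 0 belonged to a called fold change. Without the replicate number as a block, 1 member was called lower in U1U2 than in NT vehicle, and with the block 0 were: CRISPLD2 was then -0.44 (adjusted p = 0.0650), and the block changed no other call of a member. No consistent pairing of the libraries by number was seen. The 45 same-number pairs had a median correlation of -0.05 (range -0.52 to 0.50), 13 of them over 0.1. Of 18 libraries, 4 correlated best with their own number. The labels do not say whether a number marks a shared culture or day, and these correlations cannot decide it. With library totals alone and with only the groups compared, the members called for U1U2 against NT in vehicle were 0 as well. Members called for promoter against NT in vehicle came to 2 with library totals alone, and for promoter against U1U2 in vehicle to 1 with DESeq2. U1U2 against NT in MPA gave 0 in a fit of only those groups. The difference of MPA responses gave 1 for U1U2 minus NT with no filter, and 1 for promoter minus NT with DESeq2 and with RLE factors. Leaving out 1 library at a time gave 0 to 1 members for U1U2 against NT in vehicle and in MPA, promoter against U1U2 in MPA, and the difference of responses for promoter minus NT. Beyond the smaller sample of these last fits, the cause was not tested. The background moved too: over all genes, a fit of only the groups compared called 491 with MPA in NT cells against 922 reported, and 1049 against 1814 in U1U2 cells. In promoter cells the same fit called more genes with MPA, 2839 against 2339. For U1U2 against NT in vehicle the alternatives called 4 (only those groups) to 808 (no filter) against 178, for promoter against NT in vehicle 435 (only those groups) against 1050, and for promoter against U1U2 in vehicle 11 (only those groups) to 258 (DESeq2) against 122. In MPA, only the groups compared gave 85 against 268 for U1U2 and NT, and 16 against 51 for promoter and U1U2, where DESeq2 gave 86. Differences of MPA responses ran from 8 to 281 against 34 for U1U2 minus NT, from 150 to 758 against 242 for promoter minus NT, and from 0 to 57 against 2 for promoter minus U1U2.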

Other observations

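DUSP1 belongs to the immediate-early genes, which serum and growth factors switch on within minutes, and 20 other genes of that class were listed. JUND passed the filter on low counts only through MPA libraries and is left out, which leaves 19. After 72 hours of MPA in NT cells 2 rose (FOSL2 and MYC) and 2 fell (NR4A2 and NR4A3), in U1U2 cells 4 rose (FOS, FOSL2, EGR1 and MYC) and 0 fell, and in promoter cells 4 rose (FOS, FOSL2, ATF3 and MYC) and 1 fell (JUN). Those called were 21.1%, 21.1% and 26.3% of the 19, against 5.93%, 11.7% and 15% of all tested genes. The medians were 0.06, 0.03 and -0.10, against 0.02, 0.03 and 0.00 over all tested genes. FOS, a subunit of the AP-1 transcription factor, was 0.455, 0.466 and 0.520 CPM in NT, U1U2 and promoter vehicle and 0.372, 2.95 and 2.19 CPM in MPA. Its change was -0.25 ± 0.38 in NT cells and was not called, and it rose by 2.61 ± 0.26 in U1U2 cells (adjusted p = 1.44e-06) and by 2.10 ± 0.27 in promoter cells (adjusted p = 1.83e-05). The FOS response was larger than in NT cells by 2.86 ± 0.48 (adjusted p = 0.0156) in U1U2 and by 2.35 ± 0.48 (adjusted p = 0.0150) in promoter cells, 2 comparisons that share the NT libraries. These rest on few counts per library: 4 to 12 in NT, 7 to 17 in U1U2 and 10 to 20 in promoter vehicle. Under MPA they were 4 to 17, 56 to 81 and 44 to 65. FOS reached the 0.437 CPM of the filter in 2 of 3 NT vehicle and 1 of 3 NT MPA libraries.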
